A study of Homo sapiens with 4 samples.

Results

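Tubulin isotypes are the alternative alpha- and beta-tubulins from which a cell builds its microtubules. The 10 genes described here are TUBA1A, TUBA1B, TUBA1C and TUBA4A, which encode alpha-tubulins, and TUBB, TUBB2A, TUBB2B, TUBB3, TUBB4B and TUBB6, which encode beta-tubulins. They were taken by symbol from the 58735 genes of the deposited count table, and 10 of 10 passed the filter on low counts. RNA sequencing compared 2 libraries of cells treated with clofazimine for 16 h and 2 libraries of untreated cells. The cells are labelled MHCC97-H, an established human hepatocellular carcinoma line, and both groups carry the genotype label WT. Clofazimine is a riminophenazine antibiotic; the sample labels put it at 40 uM, whereas the text on the series has 30 uM. The untreated libraries are so named by their titles and treatment label, although the protocol note shared by all 4 samples mentions clofazimine only. Nothing in the labels ties the replicates to separate cultures, and the spread behind each p-value may therefore be technical. In such bulk RNA, fewer cells of a type and less RNA per cell cannot be told apart.

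Microtubules are hollow polymers of alpha- and beta-tubulin dimers that carry transport, shape the cell and form the mitotic spindle. The isotypes differ mainly in their acidic C-terminal tails, where enzymes remove or restore a terminal tyrosine and add glutamate or glycine chains. Cells also match tubulin mRNA to the pool of unassembled dimers: when free tubulin is in excess, the factor TTC5 binds the first residues of nascent tubulin on the ribosome and, with SCAPER, recruits the CCR4-NOT complex, which removes the poly(A) tail of the mRNA.

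Total counts lay between 13543437 and 16860578 per library. TUBA1A to TUBB6 together held 0.211% and 0.216% of all counts in the clofazimine libraries, against 0.262% and 0.312% in the untreated libraries. Of the liver and hepatocellular carcinoma markers, ALB, AFP, APOA2, APOB and TTR had 0 counts in all 4 libraries, whereas the epithelial keratins KRT8 and KRT18 were abundant, with 709 CPM of KRT18 after clofazimine and 554 CPM in untreated cells (CPM are counts scaled to the TMM-adjusted library size). These 5 secretory genes of hepatocytes were thus not detected in libraries labelled as a liver cancer line. SERPINA1, another of them, was present at 17 and 21 counts after clofazimine against 90 and 121 counts in untreated cells, and was lower at a log2 fold change of -2.14 (edgeR adjusted p = 1.82e-05). Of the markers of other cell types, 2 of 6 leukocyte, 2 of 4 endothelial and 4 of 6 fibroblast genes passed the filter. All of these were lower after clofazimine except COL1A1, at a log2 fold change of 0.44. Their summed level was 18.8 and 21.2 CPM after clofazimine against 34.2 and 41.0 CPM for leukocyte markers, 5.98 and 5.77 against 25.4 and 32.8 CPM for endothelial markers, and 145 and 124 against 112 and 115 CPM for fibroblast markers. PTPRC, LYZ and KDR had 0 counts in every library. The part of these changes in the tubulin results was not tested.

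The starts of the coding sequences are shown because they encode the peptide that TTC5 reads. Each line gives the first 30 coding bases from GENCODE 29 with the first 4 codons in capitals. The 4 alpha genes used 2 spellings of these codons for 1 and the same peptide, and the 6 beta genes used 4 spellings for 1 peptide.
TUBA1A, TUBA1B and TUBA1C: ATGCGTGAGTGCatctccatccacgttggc
TUBA4A: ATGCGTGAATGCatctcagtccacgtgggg
TUBB2A: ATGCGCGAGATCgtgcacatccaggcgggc
TUBB2B: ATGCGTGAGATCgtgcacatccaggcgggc
TUBB3: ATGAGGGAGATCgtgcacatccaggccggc
TUBB6: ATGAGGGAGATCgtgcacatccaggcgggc
TUBB4B: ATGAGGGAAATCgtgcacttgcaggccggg
TUBB: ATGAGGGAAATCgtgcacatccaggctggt

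The other end of the coding sequence encodes the tail in which beta isotypes differ most. The last 60 coding bases before the stop codon are given for the near copies TUBB2A and TUBB2B, for TUBB3, which was higher after clofazimine, and for TUBB6, which was lower.
TUBB2A: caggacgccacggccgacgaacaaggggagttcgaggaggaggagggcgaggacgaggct
TUBB2B: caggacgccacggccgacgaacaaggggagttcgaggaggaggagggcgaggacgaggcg
TUBB3: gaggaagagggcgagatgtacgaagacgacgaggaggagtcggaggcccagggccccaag
TUBB6: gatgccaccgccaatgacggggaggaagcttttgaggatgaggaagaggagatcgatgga
The coding sequences of TUBA1A and TUBA1B were 97.2% identical and those of TUBB2A and TUBB2B 98.1%, each pair with 2 differing residues. Of all 100-base windows of the transcript used, 18.6% in TUBA1A, 37.2% in TUBA1B and 11.5% in TUBA1C also occurred in a transcript of another gene, mostly of each other. The same share was 56.4% for TUBB2A and 46.2% for TUBB2B. It was 89.0% for TUBB3, whose exons are also annotated in the readthrough gene AC092143.1. AC092143.1 itself had 0 or 1 counts per library. The counting program is not given in the sources used here, so the division of reads between TUBA1A, TUBA1B and TUBA1C and between TUBB2A and TUBB2B is uncertain, and reads of TUBB3 shared with the readthrough gene may not have been counted, which was not tested. TUBA4A (1.84%), TUBB (5.10%), TUBB4B (2.86%) and TUBB6 (0.00%) shared few such windows.

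Clofazimine lowered 4 tubulin isotypes and raised 1. TUBA1A, an alpha-tubulin known for its role in developing neurons, was 2.66-fold lower, the largest change of the 10. TUBB6, TUBB4B and TUBA1B were 1.32- to 1.44-fold lower, and TUBB3, the beta-tubulin used as a neuronal marker, was 2.13-fold higher. TUBA1C, TUBA4A, TUBB, TUBB2A and TUBB2B did not pass the test. Thus 5 of 10 isotypes were called at an adjusted p under 0.05 (edgeR quasi-likelihood test, Benjamini-Hochberg over all tested genes), where 59.9% of all 16388 tested genes were called. By direction, 4 of 10 were lower against a background of 30.4%, and 1 of 10 was higher against 29.5%. The 2 groups did not overlap for 8 of 10 isotypes, against 80.8% of all tested genes. The isotypes were thus called no more often than tested genes in general. The median log2 fold change of the isotypes was -0.31, and that of all tested genes -0.03. Over all genes 4828 were higher and 4983 lower on the TMM scale, and 3732 higher and 6245 lower when library totals alone set the scale, which shifted the median of all genes by -0.17. On that scale 1 isotype was higher and 7 were lower. Untreated replicate 2 had the higher level of all 10 isotypes within its group, and without it 1 isotype was higher and 1 lower.

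**Figure D1:**
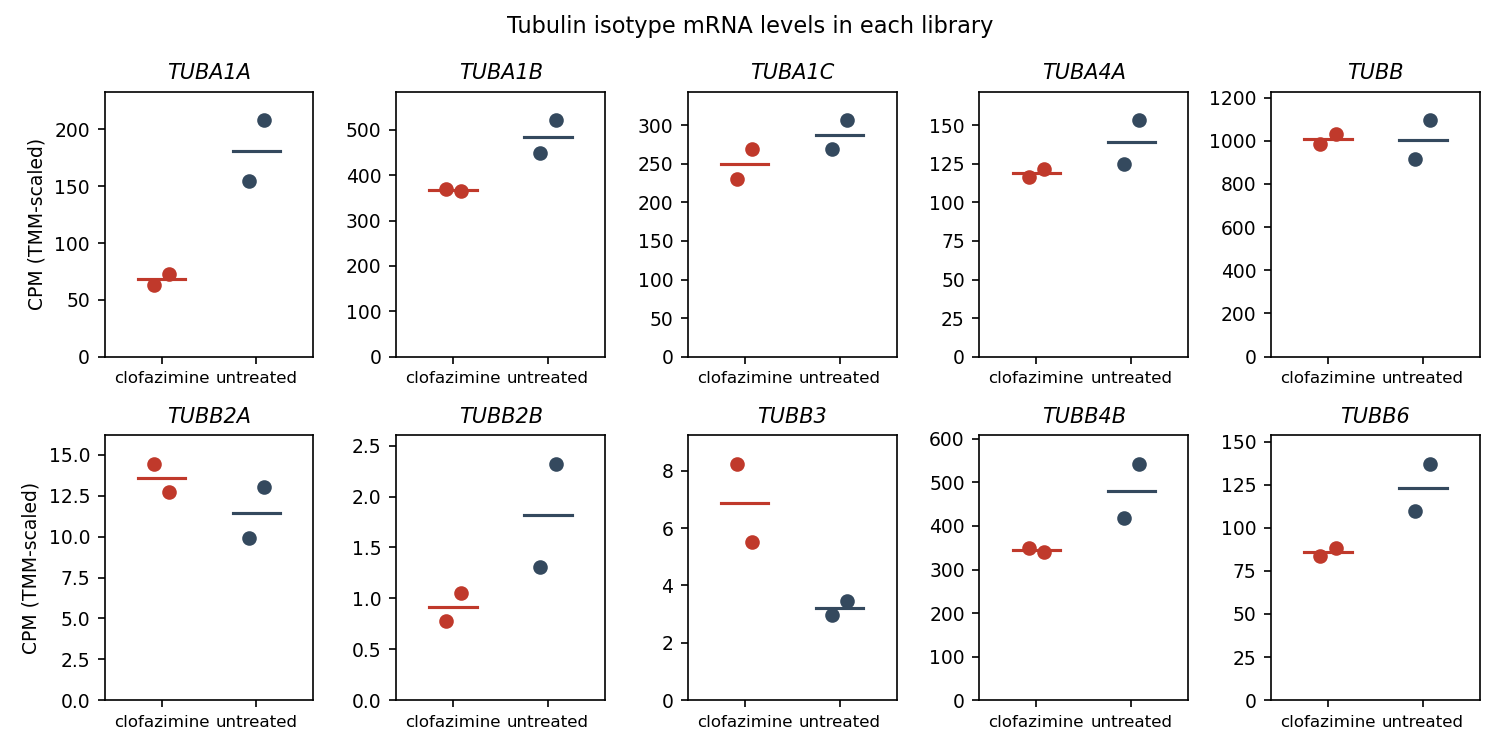
Level of each tubulin isotype in TMM-scaled CPM (linear axis from 0), with 1 point per library and a bar at the mean of 2 libraries, clofazimine on the left and untreated on the right of each panel. TUBA1A stood at 62.7 and 73.2 CPM after clofazimine against 154 and 208 CPM in untreated cells, whereas the groups overlapped for TUBB and TUBB2A.

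Among the alpha isotypes, TUBA1A (ENSG00000167552, chromosome 12, 49184796 to 49189324, minus strand, GRCh38) had 62.7 and 73.2 CPM in the clofazimine libraries, against 154 and 208 CPM in the untreated libraries. Both clofazimine libraries lay far below both untreated ones. The means were 67.9 ± 7.38 CPM after clofazimine and 181 ± 37.9 CPM untreated (SD, n = 2 each), and the log2 fold change was -1.41 ± 0.15 (SE, edgeR adjusted p = 5.82e-07). TUBA1A stood at the 10.4th percentile of the log2 fold changes of all tested genes. It stayed lower and called under all 13 other settings of the whole-table fit, at log2 fold changes from -1.63 to -1.20.

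TUBA1B (ENSG00000123416, chromosome 12, 49127782 to 49131397, minus strand), the alpha-tubulin most widely expressed in dividing cells, had 369.9 and 366 CPM after clofazimine, against 449 and 521 CPM in untreated cells. The clofazimine libraries were close to each other and below both untreated libraries. Its log2 fold change was -0.40 ± 0.13 (SE, edgeR adjusted p = 0.015). The call ended without untreated replicate 2 (log2 fold change -0.30) and with an offset for exon length and GC content (log2 fold change -0.20).

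TUBA1C (ENSG00000167553, chromosome 12, 49188736 to 49274603, plus strand), a close relative of TUBA1B, had 229.8 and 268.6 CPM after clofazimine against 269.0 and 306 CPM in untreated cells. The groups touched without overlapping, and the log2 fold change of -0.21 ± 0.13 (SE) did not pass the test (edgeR adjusted p = 0.18). TUBA1C overlaps TUBA1A by 589 bases on the opposite strand, and without a known strand setting reads there cannot be assigned. TUBA4A (ENSG00000127824, chromosome 2, 219249711 to 219278170, minus strand), abundant in muscle and platelets, had 117 and 121 CPM after clofazimine against 125 and 153 CPM in untreated cells. Its groups lay close together, at a log2 fold change of -0.22 ± 0.13 (SE, edgeR adjusted p = 0.14). STK16 overlaps TUBA4A on the opposite strand and was itself at a log2 fold change of -0.39.

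Because TUBA1A, TUBA1B and TUBA1C can exchange reads, all 4 alpha genes were also summed before the fit. The alpha sum was 779 and 829 CPM after clofazimine, against 998 and 1188 CPM in untreated cells. It was lower in both clofazimine libraries, with a log2 fold change of -0.44 ± 0.14 (SE, edgeR adjusted p = 0.011). That call ended without untreated replicate 2 (-0.33, adjusted p = 0.17) and with the exon length and GC offset (-0.24, adjusted p = 0.10). TUBA1A, TUBA1B and TUBA1C summed alone gave -0.48 (adjusted p = 0.0068).

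Among the beta isotypes, TUBB (ENSG00000196230, chromosome 6, 30720201 to 30725426, plus strand), the main beta-tubulin of most dividing cells, had 986 and 1030.1 CPM after clofazimine, against 915 and 1095 CPM in untreated cells. The untreated libraries enclosed the clofazimine libraries, and the log2 fold change was 0.00 ± 0.14 (SE, edgeR adjusted p = 0.98). Its sign turned under 4 other settings and it was called under 0 of 13, over a range from -0.16 to 0.16.

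TUBB4B (ENSG00000188229, chromosome 9, 137241213 to 137243707, plus strand), a broadly expressed beta-tubulin that cilia also use, had 349 and 340.4 CPM after clofazimine, against 417 and 543 CPM in untreated cells. All clofazimine values lay below all untreated values, at a log2 fold change of -0.48 ± 0.14 (SE, edgeR adjusted p = 0.0079). TUBB6 (ENSG00000176014, chromosome 18, 12307669 to 12344320, plus strand), a divergent beta-tubulin, had 83.6 and 88.2 CPM after clofazimine, against 109.7 and 137 CPM in untreated cells. Its log2 fold change was -0.52 ± 0.13 (SE, edgeR adjusted p = 0.0023). Both calls ended without untreated replicate 2, at -0.29 for TUBB4B and -0.37 for TUBB6; TUBB6 was at -0.27 and still called with the exon length and GC offset. AFG3L2 overlaps TUBB6 on the opposite strand and was at a log2 fold change of -0.02.

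TUBB3 (ENSG00000258947, chromosome 16, 89921392 to 89938761, plus strand), the neuronal class III beta-tubulin that many carcinomas also express, had 8.24 and 5.51 CPM after clofazimine, against 2.97 and 3.45 CPM in untreated cells. Both clofazimine libraries were above both untreated ones, although they differed from each other more than the untreated libraries did. These levels rest on 106 and 84 counts after clofazimine and on 52 and 61 counts in untreated cells. The log2 fold change was 1.09 ± 0.27 (SE, edgeR adjusted p = 0.0022), and it stayed positive and called under all 13 other settings, from 0.80 to 1.37. Of 10 other neuronal markers listed, 5 passed the filter, 0 were higher and 1, MAP2, was lower. Their summed level was 50.4 and 49.8 CPM after clofazimine against 63.2 and 61.2 CPM in untreated cells, and ELAVL4 had 0 counts in all libraries.

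TUBB2A (ENSG00000137267, chromosome 6, 3153669 to 3157526, minus strand), a beta-tubulin abundant in brain, had 14.5 and 12.7 CPM after clofazimine, against 9.93 and 13.0 CPM in untreated cells. The groups overlapped, and the log2 fold change was 0.24 ± 0.18 (SE, edgeR adjusted p = 0.26). Its neighbour and near copy TUBB2B (ENSG00000137285, chromosome 6, 3224261 to 3231730, minus strand) had 10 and 16 counts after clofazimine, against 23 and 41 counts in untreated cells. These counts correspond to 0.777 and 1.05 CPM after clofazimine against 1.31 and 2.32 CPM. TUBB2B was at a log2 fold change of -0.98 ± 0.44 (SE, edgeR adjusted p = 0.067), which passed the test with library totals (-1.14) and with an exon length offset (-1.02). TUBB2A and TUBB2B summed were at 0.12 (adjusted p = 0.57), and how reads were divided between these near copies is not known. PSMG4 overlaps TUBB2B on the opposite strand.

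The 6 beta genes summed to 1441 and 1478 CPM after clofazimine, against 1456 and 1793 CPM in untreated cells. The groups overlapped, and the beta sum was at a log2 fold change of -0.15 ± 0.14 (SE, edgeR adjusted p = 0.36). It was called under 0 of 13 other settings. The difference between the changes of the alpha and beta sums was not tested.

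**Figure D2:**
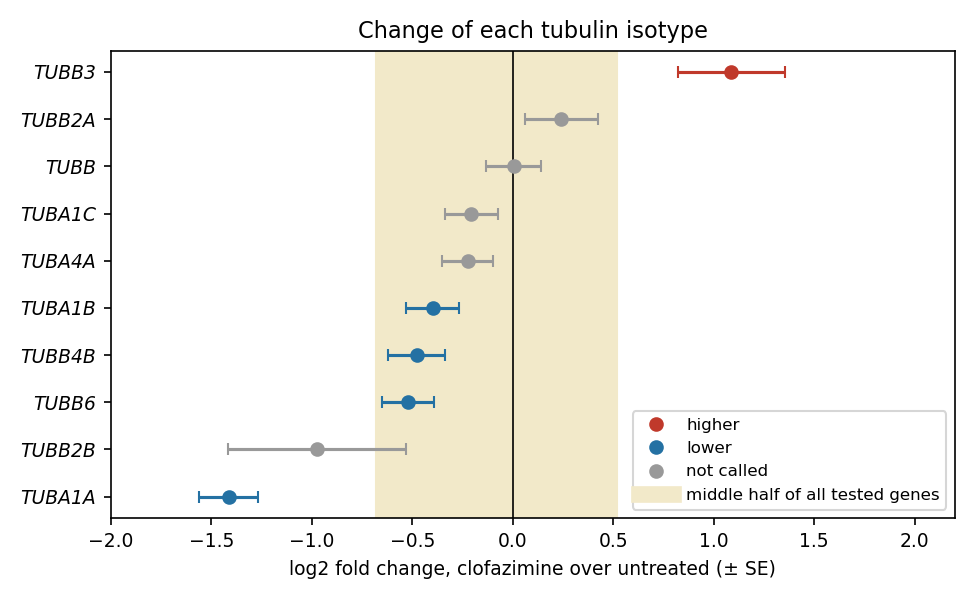
Log2 fold change (clofazimine over untreated) of each tubulin isotype with its SE, sorted; red is called higher, blue called lower and grey not called at an adjusted p under 0.05. TUBA1A at -1.41 and TUBB3 at 1.09 lay outside the shaded middle of all tested genes (-0.68 to 0.52), as did the uncalled TUBB2B at -0.98.

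Levels of different isotypes were compared per length, as CPM divided by the annotated exon length in kilobases. In both groups TUBB was highest, at 294 and 307 after clofazimine and 272 and 326 in untreated cells, followed by TUBB4B at 165 and 161 after clofazimine and 198 and 257 in untreated cells and by TUBA1B at 103 and 102 after clofazimine and 126 and 146 in untreated cells. These 3 genes did not overlap one another within a group. In untreated cells TUBA1A (45.1 and 60.8) overlapped TUBA1C (58.1 and 66.1), but after clofazimine TUBA1A (18.3 and 21.4) lay below TUBA1C (49.6 and 58.0) and TUBA4A (28.6 and 29.8) and overlapped TUBB6 (20.3 and 21.4). TUBB2A stood at 8.37 and 7.36 after clofazimine and at 5.75 and 7.54 in untreated cells. After clofazimine TUBB3 (1.86 and 1.24) was above TUBB2B (0.354 and 0.478). In untreated cells TUBB3 (0.670 and 0.779) and TUBB2B (0.598 and 1.06) overlapped. This overlap and that of TUBA1A with TUBB6 depended on the length used. By the longest transcript, untreated TUBB3 (1.4998 and 1.7457) lay above untreated TUBB2B (0.6496 and 1.1489). On that scale TUBA1A (32.8 and 38.2) lay below TUBB6 (38.6 and 40.8) after clofazimine. Reads of TUBB3 shared with the readthrough gene may also be missing from its level.

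As shares of the alpha pool per length, TUBA1A made up 9.16% and 10.1% after clofazimine, against 17.4% and 19.6% in untreated cells. TUBA1C took 24.8% and 27.4% after clofazimine against 22.4% and 21.3%, TUBA4A 14.3% and 14.1% against 11.8% and 12.1%, and TUBA1B 51.7% and 48.4% against 48.4% and 47.0% in untreated cells. Of the 4 alpha isotypes, TUBA1A was the one with a smaller mean share after clofazimine. Shares of a pool are bound to a fixed total, so a larger share need not be a higher level. TUBA1B had a larger mean share at a log2 fold change in level of -0.40. Its shares overlapped between the groups, however, at 48.41% in clofazimine replicate 2 and 48.44% in untreated replicate 1. TUBB gained share of the beta pool at a log2 fold change in level of 0.00. The ratio of TUBA1A to TUBA1B on the same scale was 0.177 and 0.209 after clofazimine against 0.359 and 0.417 in untreated cells. In the beta pool TUBB made up 59.97% and 61.5% after clofazimine against 54.1% and 52.1% in untreated cells. TUBB4B made up 33.7% and 32.4% after clofazimine against 39.2% and 41.1%, and TUBB6 4.15% and 4.30% against 5.29% and 5.32%. TUBB3 reached 0.380% and 0.249% after clofazimine against 0.133% and 0.125% in untreated cells. The alpha pool per beta pool was 0.409 and 0.425 after clofazimine against 0.515 and 0.496 in untreated cells. With 2 libraries in each group no exact permutation p can be below 0.333, so the shares are given as values without a test.

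**Figure D3:**
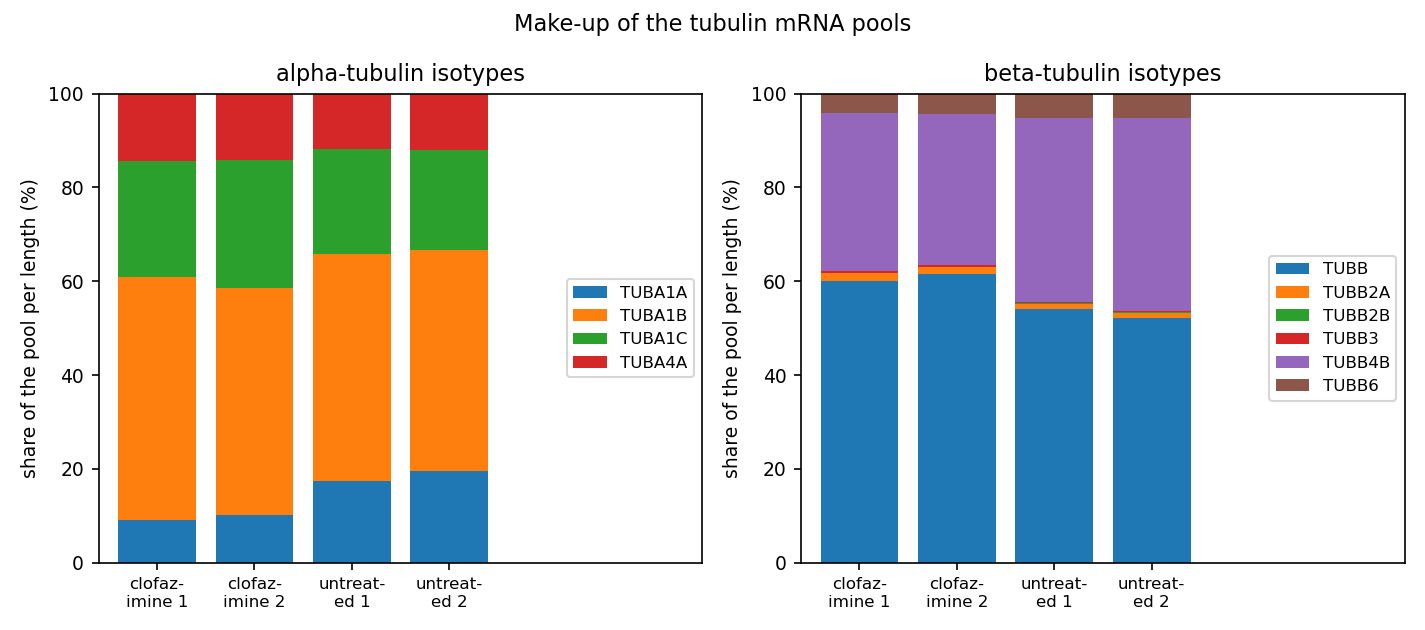
Share in percent of each isotype in the alpha (left) and beta (right) tubulin mRNA pool of each library, from counts divided by exon length; each bar is 1 library, clofazimine libraries first. TUBA1A took 9.16% and 10.1% of the alpha pool after clofazimine against 17.4% and 19.6% in untreated cells, and TUBB 59.97% and 61.5% of the beta pool against 54.1% and 52.1%.

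Promoters are shown for TUBA1A and TUBB4B, which fell, and for TUBB3, which rose. The sequences are the 250 bases before a RefSeq gene start on GRCh38.p14, where 15 such windows matched the 10 genes. For TUBB3 the second of its windows is shown. RefSeq starts can differ from the GENCODE gene bounds given above. Within those bounds lie the whole TUBB3 window, most of the TUBA1A window and part of the TUBB4B window. Capitals mark CCAAT boxes (CCAAT) and GC boxes (GGGCGG) on either strand, and the TATA box (TATAAA), the E-box (CACGTG) and the cyclic AMP response element (TGACGTCA) were also searched.
TUBA1A (chr12:49189081-49189330, minus strand): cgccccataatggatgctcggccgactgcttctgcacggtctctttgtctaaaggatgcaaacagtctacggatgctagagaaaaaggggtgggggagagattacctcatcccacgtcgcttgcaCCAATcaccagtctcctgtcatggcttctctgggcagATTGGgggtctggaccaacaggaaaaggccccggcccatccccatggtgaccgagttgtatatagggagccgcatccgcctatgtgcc
TUBB4B (chr9:137241037-137241286, plus strand): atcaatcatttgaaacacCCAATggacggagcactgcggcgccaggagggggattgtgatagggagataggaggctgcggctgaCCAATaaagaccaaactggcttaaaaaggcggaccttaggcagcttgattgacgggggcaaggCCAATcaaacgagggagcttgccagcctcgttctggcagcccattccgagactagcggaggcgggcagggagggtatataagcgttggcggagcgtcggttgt
TUBB3 (chr16:89923092-89923341, plus strand): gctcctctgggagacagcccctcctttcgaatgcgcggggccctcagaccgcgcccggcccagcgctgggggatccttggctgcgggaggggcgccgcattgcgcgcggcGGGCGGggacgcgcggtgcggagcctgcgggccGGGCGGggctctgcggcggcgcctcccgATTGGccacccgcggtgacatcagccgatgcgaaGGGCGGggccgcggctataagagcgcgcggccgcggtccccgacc
A CCAAT box was found in 9 of 15 tubulin windows and in 32.0% of all 35116 RefSeq windows of this length, and a GC box in 9 of 15 and 42.6%. Windows of a gene can overlap: those of TUBA1C at 49227676 to 49227925 and at 49227769 to 49228018 hold the same CCAAT box. That box is thus counted more than once, and the window counts are not counts of genes. TUBA1A held 2 CCAAT boxes and TUBB4B 3, both with 0 GC boxes, whereas the TUBB3 window shown held 1 CCAAT box and 3 GC boxes. The other TUBB3 window (chr16:89921675-89921924) held 0 CCAAT boxes and 0 GC boxes. The TATA box was found in 1 window and the E-box in 2, against 10.7% and 6.34% of all windows, and the cyclic AMP response element in 1 window, that of TUBB2A, against 1.65% of all windows. TUBA1B, which also fell, held 0 CCAAT boxes and 3 GC boxes, so the letters did not separate the isotypes that fell from the others. A match describes letters in the window and not a bound factor.

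Genes that fold, modify or use tubulin were counted from lists, read against 29.5% of all tested genes called higher and 30.4% lower. Prefoldin and the CCT chaperonin, folding factors that act before the dimer forms, were mostly higher. Prefoldin, which hands unfolded tubulin to the chaperonin, had 6 of 6 subunits higher at a median log2 fold change of 0.81, led by PFDN2 at 1.90 ± 0.13 (SE) with 226 ± 33.7 CPM after clofazimine against 60.6 ± 2.71 CPM in untreated cells (SD, n = 2 each), PFDN4 at 1.64, VBP1 at 0.90 and PFDN5 at 0.71. The CCT chaperonin had 6 of 8 subunits higher and 0 lower at a median of 0.42, with CCT8 at 0.86, CCT4 at 0.53, CCT5 at 0.53 and CCT3 at 0.44, and 3 of 8 higher with library totals or without either untreated replicate. The tubulin-specific cofactors, several of which take part in joining alpha- to beta-tubulin, divided. TBCA, the beta-tubulin chaperone, rose at 0.96, whereas TBCC at -1.04 and TBCD at -0.72, both parts of the dimer-assembling complex, fell. TBCB (0.19), TBCE (0.11), TBCEL (0.31) and ARL2 (-0.21) did not pass the test, and the cofactors' median of 0.11 was -0.05 with library totals.

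Of the 12 genes of tubulin mRNA autoregulation and the CCR4-NOT complex, 3 were higher and 1 lower. TTC5, the reader of nascent tubulin, had 24.6 CPM after clofazimine against 19.7 CPM in untreated cells and a log2 fold change of 0.33 ± 0.14 (SE, edgeR adjusted p = 0.057). SCAPER was at 0.19 ± 0.13 (SE, edgeR adjusted p = 0.22). CNOT1, the scaffold of the deadenylase complex, fell to 205 CPM after clofazimine, against 427 CPM in untreated cells, at -1.06. CNOT2 (0.67), CNOT10 (0.64) and CNOT3 (0.43) rose. The list's median of 0.06 was -0.11 with library totals, 6 members were higher with the exon length offset, and 3 were lower with the exon length and GC offset.

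Of the enzymes that modify tubulin, 11 of 19 tested members were lower and 2 higher, at a median log2 fold change of -0.42. With the exon length and GC offset 7 were lower and 4 higher, and 8 were lower without untreated replicate 2, without clofazimine replicate 2 or, of 20 tested, with no filter on low counts. VASH1, a carboxypeptidase that removes the terminal tyrosine of alpha-tubulin, fell to 7.84 CPM after clofazimine, against 44.4 CPM in untreated cells, at -2.50 ± 0.15 (SE, edgeR adjusted p = 1.77e-09). Its paralog VASH2 fell at -0.79, and SVBP, the small partner of both, rose at 0.74. HDAC6, the main deacetylase of alpha-tubulin, fell to 36.5 CPM after clofazimine, against 77.3 CPM in untreated cells, at -1.09, while SIRT2, another tubulin deacetylase, rose at 0.39. The glutamylase TTLL5 fell at -0.57. SVBP and SIRT2 overlap ERMAP and NFKBIB on the opposite strand, TTLL5 also overlaps IFT43 on its own strand, and the list had 0 members higher without untreated replicate 1 and 1 without untreated replicate 2.

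Of 13 other tubulins listed, 7 passed the filter, 4 were lower and 1 higher. TUBE1, the epsilon-tubulin of centrioles, rose to 61.1 CPM after clofazimine, against 19.3 CPM in untreated cells, at 1.66 ± 0.14 (SE, edgeR adjusted p = 5.46e-08). TUBD1, the delta-tubulin of centrioles, fell at -0.81. TUBB4A, TUBB1 and TUBA3D, which were singled out after their values were seen, also fell: TUBB4A had 20 and 27 counts after clofazimine against 110 and 138 in untreated cells, TUBB1 had 1 and 1 against 18 and 13, and TUBA3D had 1 and 5 against 31 and 28. TUBB1 and TUBA3D overlap the more abundant genes ATP5F1E and MZT2A on the opposite strand. The gamma-tubulins did not pass the test: TUBG1 had 118 CPM after clofazimine against 129 CPM in untreated cells (-0.13), and TUBG2 49.9 CPM against 43.1 CPM (0.21).

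Genes of gamma-tubulin nucleation had 5 of 14 members higher and 3 lower, with MZT1 (1.22), NEDD1 (0.74), TUBGCP4 (0.61) and MZT2A (0.40) among those that rose and TUBGCP5 (-1.10), TUBGCP3 (-0.79) and PCNT (-0.50) lower. In this list 3 were higher and 5 lower with library totals, 8 higher and 2 lower with the exon length and GC offset, and 3 higher without either untreated replicate. Microtubule binding and severing proteins had 5 of 30 members higher and 6 lower. Of these 30, 3 were higher and 12 lower with library totals, 8 higher and 5 lower with the exon length and GC offset, 3 higher without untreated replicate 2 and 10 lower without clofazimine replicate 1. DCLK1, a doublecortin-like kinase that binds microtubules, had the highest fold change of that list, at 3.23 ± 0.26 (SE) with 11.5 CPM after clofazimine against 1.22 CPM in untreated cells. The end-binding protein MAPRE3 (1.06), MAP7 (0.80) and the depolymerase KIF2C (0.29) also rose, and MAP1A (-1.98), MAPRE2 (-0.95), MAPT (-0.77) and the severing enzyme subunit KATNAL1 (-0.75) fell. The median was 0.11 for the nucleation genes and -0.05 for the binding and severing genes, and -0.06 and -0.22 for these lists with library totals; for the binding and severing genes it was 0.07 with the exon length offset. TUBGCP4 overlaps the more abundant TP53BP1 on the opposite strand.

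Other genes are set beside the isotypes without a test of their part in the result. They too are read against 29.5% of all tested genes called higher and 30.4% lower. Whether the list named for RNA quality reflects the quality of these RNA samples was not tested. Mitosis and proliferation genes had 7 of 20 members higher and 5 lower, with CDC20 (0.52), AURKB (0.51) and AURKA (0.46) higher and PLK1 (-0.79), MKI67 (-0.71), KIF11 (-0.60) and KIF20A (-0.55) lower. MKI67 differed widely between the clofazimine libraries, at 445 and 246 CPM against 571 and 560 CPM in untreated cells. PRC1 was at 1.42, but it overlaps a more abundant gene on its own strand. Of the 20, 1 was higher without untreated replicate 1 and 3 without untreated replicate 2. With library totals, and likewise with the exon length and GC offset, 4 were higher and 7 lower, and the median of 0.10 was -0.06. The nuclear and small RNA host transcripts listed for RNA quality were higher in 5 of 5 cases, with GAS5 at 1.98, SNHG1 at 1.63, MALAT1 at 0.96 and KCNQ1OT1 at 0.92 (3 of 5 without clofazimine replicate 1).

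**Figure D4:**
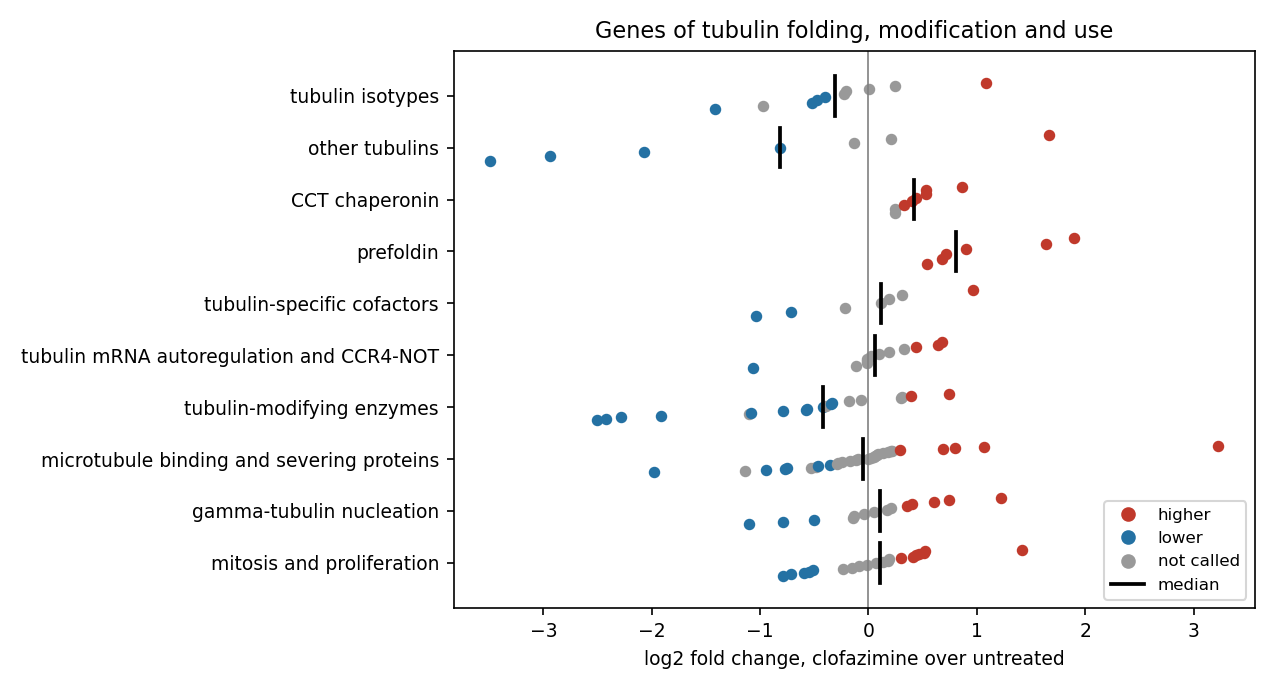
Log2 fold change (clofazimine over untreated) of every tested gene of the tubulin isotypes and 9 gene lists, 1 point per gene, coloured by call, with a black bar at each list's median. Prefoldin at a median of 0.81 and CCT at 0.42 lay to the right of 0, and tubulin-modifying enzymes at -0.42 and the tubulin isotypes at -0.31 to the left.

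**Figure D5:**
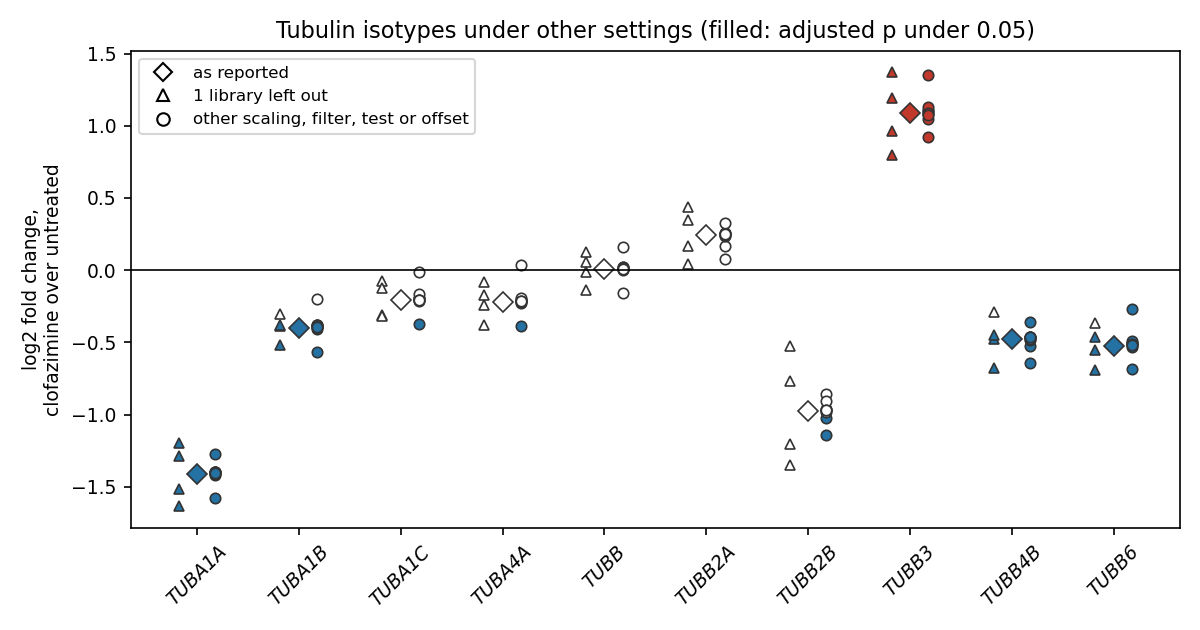
Log2 fold change (clofazimine over untreated) of each isotype as reported (diamond), with 1 library left out (triangles) and under other scalings, filters, tests or offsets (circles); filled symbols have an adjusted p under 0.05. TUBA1A (-1.63 to -1.20) and TUBB3 (0.80 to 1.37) kept their direction and their filled symbols in all settings shown, whereas TUBB lay on both sides of 0.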

How the data were processed

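For 4 libraries of polyadenylated RNA the authors deposited unnormalized whole-number counts of 58735 Ensembl identifiers. Fastp and GRCh38 were used, per the submitters' processing notes; the aligner, counting program, strand setting and annotation are not given in the sources used here. Symbols and coordinates came from GENCODE 29, in which 58735 identifiers matched. TBCE has 2 identifiers there, and the one with more counts was used. Groups came from the sample titles and match the treatment labels; the treatment protocol, the same for all 4 samples, does not tell the groups apart.

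The deposited counts entered edgeR 4.0.16 (R 4.3.3), TMM scaling (factors 0.936 to 1.07), filterByExpr (minimum count 10, minimum total 15) and a quasi-likelihood test without a replicate term, adjusted over 16388 genes. Each SE was derived from the estimate and its F statistic. A floor of 3 counts equals 0.170 to 0.233 CPM, which covers counting error only, as no molecular identifiers are mentioned in the labels. Replicates differed by more than counting noise (chi-square per degree of freedom 13.1 for clofazimine and 6.40 for untreated). The pipeline was tested on simulated data. It recovered 28 of 67 genes changed 1.5-fold, 45 of 67 changed 2-fold and 63 of 66 changed 4-fold, with 7 false calls among 143. Far fewer genes were changed there than were called here, so these rates do not carry over directly.

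The members, lists and tests were chosen with earlier results of these data known. Named genes were the members, up to 4 called genes per direction and list with at least 5 CPM and groups that did not overlap, TTC5, SCAPER and all cofactors; others are marked. Alternatives were other scalings, filters, tests (DESeq2 1.42.0, limma-voom from limma 3.58.1), a replicate block, each library left out, and an offset for exon length (mgcv 1.9.3); the offset with GC content was chosen after seeing the data.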

Additional observations from a re-analysis of the deposited data

How the results depend on the processing

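TUBA1A, TUBA1B, TUBA1C, TUBA4A, TUBB2B, TUBB4B and TUBB6 were lower and TUBB2A and TUBB3 higher under all whole-table alternatives, except TUBA4A with the exon length and GC offset (0.034); TUBB changed sign. Leaving out each library in turn gave log2 fold changes from -1.63 to -1.20 for TUBA1A, -0.52 to -0.30 for TUBA1B, -0.32 to -0.078 for TUBA1C, -0.38 to -0.08 for TUBA4A, -0.14 to 0.12 for TUBB, 0.04 to 0.44 for TUBB2A, -1.35 to -0.53 for TUBB2B, 0.80 to 1.37 for TUBB3, -0.68 to -0.29 for TUBB4B, -0.69 to -0.37 for TUBB6, -0.58 to -0.33 for the alpha sum and -0.32 to -0.01 for the beta sum. Isotypes called ranged from 2 to 6, those lower from 1 to 5, and all genes called from 6920 to 9782. With 1 library in a group, that library is assumed to vary like the others.

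TUBB was at -0.02 without clofazimine replicate 2, -0.14 without untreated replicate 1, -0.00 (value -0.0023) with the filter of 1 CPM and -0.16 with library totals. With library totals 8 isotypes were called, 7 of them lower, with TUBA1C at -0.37, TUBA4A at -0.39 and TUBB2B at -1.14 now past the threshold; TUBA1C also passed it without clofazimine replicate 2 (-0.31) and TUBB2B with the exon length offset (-1.02). The exon length and GC offset ended the calls of TUBA1B (-0.20) and the alpha sum (-0.24) and put the beta sum at 0.020. Summing near copies gave -0.48 for TUBA1A, TUBA1B and TUBA1C and 0.12 for TUBB2A and TUBB2B. Adding 33 beta and 4 alpha pseudogenes changed neither sum's call. The causes were not tested.

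By the longest transcript, share changes (clofazimine minus untreated) were -11.1 points for TUBA1A, 2.98 for TUBA4A, 0.361 for TUBB3 and -1.81 for TUBB6; without length scaling they were 0.228 for TUBB2A and -1.71 for TUBB6.

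The replicate numbers are shared by the groups, but the labels do not tie them to a culture, and with 2 pairs the deviations of same-numbered libraries correlated at -0.046 across genes. With a replicate block 9605 genes were called in place of 9811, and 1 isotype was higher and 4 lower, as without it. Counts of 10 to 41 limit TUBB2B.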
